A study of Mus musculus with 6 samples.

Results

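The 10 genes described here are regulators and surface markers of plasma cells, the antibody-secreting end stage of the B lineage, that lie outside the immunoglobulin loci. They were chosen by symbol, as named transcription factors and markers of antibody-secreting cells, and all 10 were found among the 30733 symbols of the files. They are the transcription factor genes Irf4, Prdm1 and Xbp1, the coactivator gene Pou2af1, the factors of antibody production Mzb1, Tent5c, Ell2 and Eaf2, and the surface marker genes Sdc1 and Slamf7.

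RNA sequencing was done on 3 libraries of MHCII-hi cells and 3 libraries of MHCII-lo cells. All 6 were sorted from bone marrow of wild-type mice given 5 Gy of total body irradiation and were labelled as haematopoietic stem cells (HSCs), the cells that renew all blood lineages. MHCII molecules display peptides to CD4 T cells, and their surface level set the groups. How the gates were drawn, how long after irradiation the marrow was taken, how old the mice were and whether replicates are separate mice is not stated in the labels. So p-values measure library-to-library spread, part or all of which may be technical.

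Values were taken to be FPKM, as the deposited headers state no unit. FPKM are fragments scaled by transcript length and by library total, so levels of different genes may be compared per length. Fold means the ratio of mean FPKM, MHCII-hi over MHCII-lo. The log2 change is the difference of mean log2(FPKM + 1), MHCII-hi less MHCII-lo, which understates the change of low genes. Tests are limma with Benjamini-Hochberg adjustment over the 12110 genes whose mean reached 1 FPKM, called at an adjusted p under 0.05. From the step that 1 fragment makes in low values, depth was put at 1.98e+07 to 3.22e+07 fragments in MHCII-hi libraries and 2.19e+07 to 2.44e+07 in MHCII-lo libraries. The sorted molecule followed the labels: the mean log2(FPKM + 1) of H2-Aa, H2-Ab1 and H2-Eb1 came to 6.17 ± 0.02 in MHCII-hi, against 1.86 ± 0.08 in MHCII-lo (SD, n = 3), with an exact two-sided permutation p = 0.1, which is the minimum for 3 against 3. Of the genes that define HSCs, Procr, Slamf1, Mecom, Fgd5 and Hoxb5 reached at most 0.72 FPKM in any library, while Kit stood at 14.87 to 15.07 FPKM in MHCII-hi and 12.5 to 12.63 FPKM in MHCII-lo. The neutrophil gene S100a9 stood at 6434 to 6678 FPKM in MHCII-hi and 16711 to 17034 FPKM in MHCII-lo.

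As background, a B cell becomes a plasma cell when IRF4 rises and switches on Prdm1, whose product BLIMP-1 silences the genes of B cell identity. XBP1, made active when the sensor IRE1 splices its mRNA in the stressed endoplasmic reticulum, then enlarges the secretory machinery. In bone marrow, long-lived plasma cells rest in niches and release most serum antibody.

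All 10 genes were higher in MHCII-hi cells, but by very different amounts. Mzb1, Pou2af1 and Irf4 were higher by 76.3-fold, 52.1-fold and 35.5-fold, and Xbp1 and Ell2 by only 1.21-fold and 1.45-fold. The fold of Mzb1 was 129 without MHCII-lo replicate 3, where its level was highest of that group. All 10 passed the test as higher, where 25.5% of all tested genes were called higher and 58.6% were called in either direction. The groups did not overlap for any of the 10, as for 65.8% of all tested genes and for 29.0% in the higher direction. Of the 10, 7 had a mean under 1 FPKM in MHCII-lo and could pass the expression minimum only through MHCII-hi. With no minimum, all 10 were again called higher, against 14.6% of 27171 genes called higher and 28.4% called in either direction. For 7 of the 10 the log2 change was 2 or more, against 2.06% of all tested genes. The median log2 change of the 10 was 2.33, against -0.04 for all tested genes. In these bulk libraries, fewer cells of a type and less RNA per cell cannot be told apart.

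**Figure D1:**
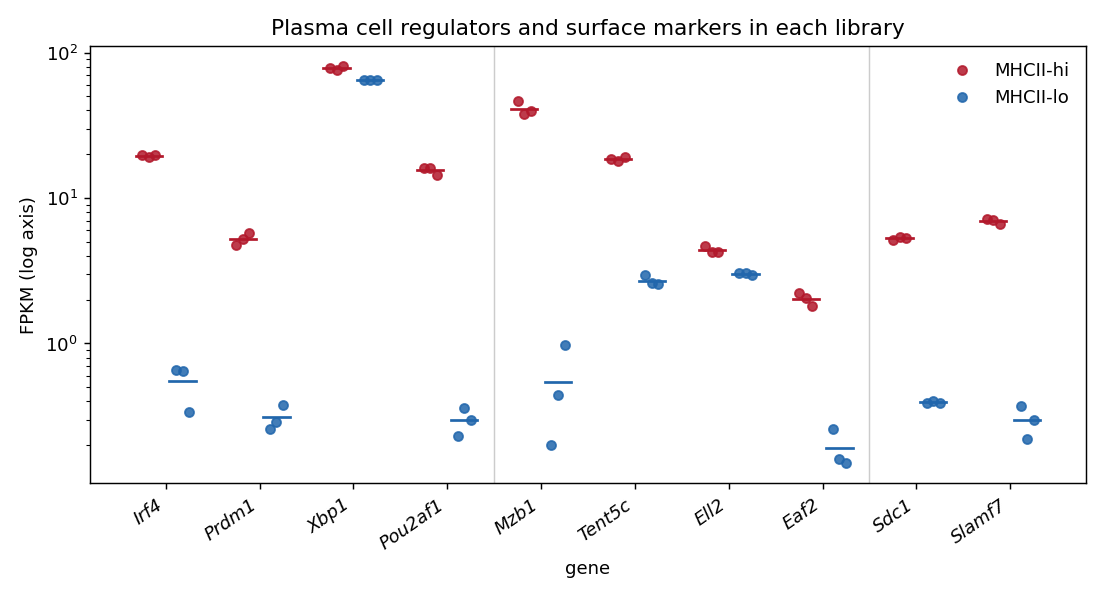
FPKM (log axis) of the 10 genes in each library, MHCII-hi in red and MHCII-lo in blue; points are libraries, short lines are group means, and grey lines separate transcription regulators, factors of antibody production and surface markers. The red points lie above the blue ones for every gene, far above for Mzb1, Pou2af1 and Irf4 and slightly above for Xbp1 and Ell2.

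Of the transcription regulators, Irf4 (chromosome 13, 30749226 to 30766976, GRCm38) encodes the factor that starts plasma cell differentiation and that dendritic cells and activated T cells also use. Its level was 19.60, 19.16 and 19.76 FPKM in MHCII-hi replicates 1 to 3, against 0.66, 0.65 and 0.34 FPKM in MHCII-lo replicates 1 to 3, the order used for each gene that follows. The MHCII-hi libraries lay within 1 FPKM of each other and MHCII-lo replicate 3 was the lowest of all. The log2 change was 3.73 (SE 0.09, limma adjusted p = 1.65e-07), and 7 of 11883 tested genes outside the immunoglobulin loci had a larger one.

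Prdm1 (chromosome 10, 44437177 to 44528501) encodes BLIMP-1, a repressor that is also active in T cells and macrophages. It stood at 4.76, 5.24 and 5.77 FPKM in MHCII-hi, against 0.26, 0.29 and 0.38 FPKM in MHCII-lo. All MHCII-hi libraries were above all MHCII-lo libraries, and the MHCII-hi level varied by 9.61% (coefficient of variation), more than the 1.59% of Irf4. The fold was 17.0 and the log2 change 2.25 (SE 0.08, limma adjusted p = 1.55e-06).

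Xbp1 (chromosome 11, 5520659 to 5525893) was the most abundant of the 10 in both groups. It stood at 78.71, 75.32 and 81.05 FPKM in MHCII-hi, against 64.48, 64.42 and 65.09 FPKM in MHCII-lo. All MHCII-hi libraries lay above all MHCII-lo libraries, by a small margin. The log2 change was 0.27 (SE 0.03, limma adjusted p = 0.000321), and 2194 tested genes outside the immunoglobulin loci had a larger one. Immunoglobulin genes took 23.4% to 23.7% of summed FPKM in MHCII-hi and 0.493% to 0.502% in MHCII-lo. When each library was scaled to its summed FPKM without them, the median log2 change of all genes moved by 0.15 and that of Xbp1 became 0.45, a 1.37-fold difference. The deposited values are 1 per gene, so the spliced and unspliced Xbp1 mRNAs cannot be told apart.

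Pou2af1 (chromosome 9, 51213708 to 51240080) encodes the B-lineage coactivator OCA-B, which joins the octamer-binding factors OCT1 and OCT2. It stood at 16.10, 15.97 and 14.30 FPKM in MHCII-hi, against 0.23, 0.36 and 0.30 FPKM in MHCII-lo. MHCII-hi replicate 3 was the lowest of its group and still far above every MHCII-lo library. The log2 change was 3.67 (SE 0.07, limma adjusted p = 4.71e-08), the smallest p of the 10. Of its DNA-binding partners, Pou2f1 (OCT1) stood at 2.57 ± 0.170 FPKM in MHCII-hi, against 1.51 ± 0.134 FPKM in MHCII-lo (SD, n = 3), with a log2 change of 0.51 (limma adjusted p = 0.00104). Pou2f2 (OCT2) stood at 1.55 ± 0.0656 FPKM in MHCII-hi, against 1.12 ± 0.146 FPKM in MHCII-lo (SD, n = 3), with a log2 change of 0.27 (limma adjusted p = 0.0280) that did not pass with no expression minimum.

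The promoter of Pou2af1 is shown because, of 11 RefSeq windows of 9 of the 10 genes (250 bases before to 50 after a start, GRCm38.p6), it was the only window to hold any of 6 motifs searched on both strands. The motifs were the XBP1-binding core TGACGTG, the octamer ATTTGCAT, the IRF element (GAAA, any 2 bases, GAAA), the composite ETS and IRF element (GGAA, any 2 bases, GAAA), the BLIMP-1 core AGNGAAAG and the endoplasmic reticulum stress element (CCAAT, any 9 bases, CCACG). A stretch can match more than 1 of the IRF, composite and BLIMP-1 patterns. The match to TGACGTG, in capitals below, lies from -61 to -55 relative to the start, on the strand of the gene. Of 32851 windows of the same length, 2.01% held TGACGTG, 1.74% the octamer, 3.44% the IRF element, 2.72% the composite element, 8.63% the BLIMP-1 core and 0.119% the stress element. The promoter of Xbp1, the gene with the smallest fold, is set beside it and held none of the 6. Both are the 250 bases before the start, 5′ to 3′ on the strand of the gene, at chr9:51213440-51213689 (plus strand) and chr11:5520391-5520640 (plus strand). A match is a run of letters in this window and was not tested as a binding site.
Pou2af1: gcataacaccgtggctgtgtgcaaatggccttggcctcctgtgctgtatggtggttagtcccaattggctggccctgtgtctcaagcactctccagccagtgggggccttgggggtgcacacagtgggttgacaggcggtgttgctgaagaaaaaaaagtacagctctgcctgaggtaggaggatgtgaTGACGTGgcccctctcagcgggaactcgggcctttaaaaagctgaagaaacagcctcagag
Xbp1: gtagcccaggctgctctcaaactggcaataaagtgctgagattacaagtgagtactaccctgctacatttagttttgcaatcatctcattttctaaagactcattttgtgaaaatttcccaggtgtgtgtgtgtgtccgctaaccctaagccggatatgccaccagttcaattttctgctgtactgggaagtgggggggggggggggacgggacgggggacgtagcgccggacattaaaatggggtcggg

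The factors of antibody production ranged from a 1.45-fold difference for Ell2 to a 76.3-fold difference for Mzb1, the largest of the 10. Mzb1 (chromosome 18, 35647267 to 35649367) encodes a resident of the endoplasmic reticulum in B-lineage cells that helps immunoglobulin assemble. It stood at 46.22, 37.86 and 39.47 FPKM in MHCII-hi, against 0.20, 0.44 and 0.98 FPKM in MHCII-lo. The MHCII-lo values rest on an estimated 5.3, 12.5 and 29.1 fragments and differ among themselves by more than those of any other of the 10, with a coefficient of variation of 74.0%. The log2 change of 4.80 (SE 0.18, limma adjusted p = 1.65e-06) was the largest of the 10, and 1 tested gene outside the immunoglobulin loci, Jchain, had a larger one. In the GENCODE M21 annotation of GRCm38, 695 of the 1215 exonic bases of Mzb1 are shared with a gene named SPATA24 on the same strand, so the split of reads there is uncertain.

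Tent5c (chromosome 3, 100451628 to 100489324) encodes a poly(A) polymerase that stabilises mRNAs of secreted proteins, immunoglobulins among them. It stood at 18.41, 18.04 and 19.28 FPKM in MHCII-hi, against 2.94, 2.59 and 2.58 FPKM in MHCII-lo. The replicates of each group lay close together and MHCII-lo kept 14.6% of the MHCII-hi level. The fold was 6.87 and the log2 change 2.40 (SE 0.05, limma adjusted p = 1.13e-07).

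Ell2 (chromosome 13, 75706757 to 75772364) encodes an elongation factor that favours the secreted form of the immunoglobulin heavy chain mRNA. It stood at 4.65, 4.25 and 4.26 FPKM in MHCII-hi, against 3.07, 3.03 and 2.97 FPKM in MHCII-lo. The groups were separate, with MHCII-lo at 68.9% of MHCII-hi. The log2 change was 0.42 (SE 0.05, limma adjusted p = 0.00049).

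Eaf2 (chromosome 16, 36792884 to 36875003) encodes a partner of the ELL proteins. It stood at 2.23, 2.05 and 1.81 FPKM in MHCII-hi, against 0.26, 0.16 and 0.15 FPKM in MHCII-lo, with the lowest mean of the 10 in each group. The groups did not overlap, and MHCII-hi replicate 3 was the lowest of its group. Its MHCII-lo values rest on an estimated 16.0 to 24.9 fragments per library. The fold was 10.7 and the log2 change 1.35 (SE 0.09, limma adjusted p = 3.51e-05). Its mean over the 6 libraries lay just over the minimum of 1 FPKM, so it was not tested when an MHCII-hi library was left out. Eaf2 and Ell2 thus stood apart: Ell2 was 2.17 ± 0.159 times Eaf2 in MHCII-hi and 16.8 ± 4.39 times Eaf2 in MHCII-lo (SD, n = 3).

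The surface markers were low in MHCII-lo and moderate in MHCII-hi. Sdc1 (chromosome 12, 8771323 to 8793715) encodes syndecan-1 or CD138, the heparan sulfate proteoglycan by which plasma cells are sorted. It stood at 5.12, 5.43 and 5.32 FPKM in MHCII-hi, against 0.39, 0.40 and 0.39 FPKM in MHCII-lo. Both groups were tight, with no library out of place. The fold was 13.4 and the log2 change 2.17 (SE 0.06, limma adjusted p = 3.15e-07).

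Slamf7 (chromosome 1, 171632403 to 171653035) encodes CD319, a receptor of plasma cells that NK cells also carry. It stood at 7.12, 7.10 and 6.63 FPKM in MHCII-hi, against 0.37, 0.22 and 0.30 FPKM in MHCII-lo. Every MHCII-hi library was well above every MHCII-lo library. The fold was 23.4 and the log2 change 2.62 (SE 0.07, limma adjusted p = 2.86e-07). A gene on the opposite strand, Gm37787, shares 423 exonic bases with it, and the labels name a stranded kit but not how strand was counted.

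The order of levels differed between the groups. In MHCII-hi the order was Xbp1, Mzb1, Irf4, Tent5c, Pou2af1, Slamf7, Sdc1, Prdm1, Ell2 and Eaf2. In that order the libraries of Irf4 and Tent5c overlapped, as did those of Sdc1 and Prdm1, and other neighbours were separate. In MHCII-lo the order was Xbp1, Ell2, Tent5c, Irf4, Mzb1, Sdc1, Prdm1, Pou2af1, Slamf7 and Eaf2. There Xbp1, Ell2 and Tent5c were separate from each other and from the rest, Sdc1 was separate from Prdm1, and all other neighbours overlapped. Xbp1 was 4.02 ± 0.0853 times Irf4 in MHCII-hi and 129 ± 53.7 times Irf4 in MHCII-lo, and 15.0 ± 1.35 times Prdm1 in MHCII-hi and 214 ± 39.0 times Prdm1 in MHCII-lo (SD, n = 3).

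Genes with the most similar profile were sought among 10420 tested genes outside the immunoglobulin loci, leaving out predicted genes and Rik clones, by Euclidean distance over the 6 libraries between log2(FPKM + 1) values centred on each gene's mean. With only MHCII-hi and MHCII-lo to separate, this distance mostly measures a like difference between them. Nearest to Irf4 were H2-Ab1 (distance 0.28), Pou2af1 (0.33) and the dendritic cell lectin Cd209a (0.43). Nearest to Pou2af1 were H2-Ab1 (0.26), Irf4 (0.33) and Cd209a (0.39). Because this scale understates the change of low genes, near profiles can differ in fold. H2-Ab1, a gene of the sorted molecule, was higher by 17.2-fold and Pou2af1 by 52.1-fold. Nearest to Prdm1 were Sdc1 (0.20), the sialyltransferase gene St6gal1 (0.21) and the T cell inhibitory receptor gene Ctla4 (0.21). Nearest to Xbp1 were the autophagy receptor gene Nbr1 (0.03), Srgap2 (0.04) and the mannosidase gene Man1a (0.04).

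Of the secretory genes that XBP1 is known to drive, more fell than rose. All 38 listed genes were tested; 10 rose, 25 fell and 3 did not pass, with a median log2 change of -0.28 against -0.04 for all tested genes, where 25.5% rose and 33.1% fell. Scaled without immunoglobulin genes, 11 rose, 20 fell and 7 did not pass, with a median of -0.11 against 0.11 for all genes, where 40.6% rose and 17.5% fell. The 3 with the smallest p rose. Herpud1, a stress-induced membrane protein of the endoplasmic reticulum, stood at 72.7 ± 1.67 FPKM in MHCII-hi and 29.2 ± 0.785 FPKM in MHCII-lo. Txndc5, a disulfide isomerase, stood at 45.4 ± 0.932 FPKM in MHCII-hi, against 23.4 ± 0.495 FPKM in MHCII-lo, and Derl3, which helps export misfolded proteins, at 8.75 ± 0.811 FPKM in MHCII-hi, against 0.717 ± 0.155 FPKM in MHCII-lo (SD, n = 3; for these 3, limma adjusted p = 1.75e-07, 7.32e-07 and 1.52e-06). Among those that fell, the chaperone gene Sdf2l1 had a log2 change of -0.81, Manf of -0.58 and the signal peptidase subunit gene Spcs2 of -0.56. The abundant chaperone gene Hspa5 fell by 0.17 on the log2 scale as deposited and stood at 0.00 when scaled without immunoglobulin genes. All 5 genes of the stress sensors and their effectors rose under either scaling, with a median log2 change of 0.30. Ern1, which encodes the IRE1 enzyme that splices Xbp1 mRNA, stood at 12.5 ± 0.203 FPKM in MHCII-hi and 8.80 ± 0.274 FPKM in MHCII-lo, and Ddit3, a transcription factor of prolonged stress, at 12.4 ± 1.02 FPKM in MHCII-hi, against 7.08 ± 0.581 FPKM in MHCII-lo (SD, n = 3; limma adjusted p = 6.54e-05 and 0.000203).

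**Figure D2:**
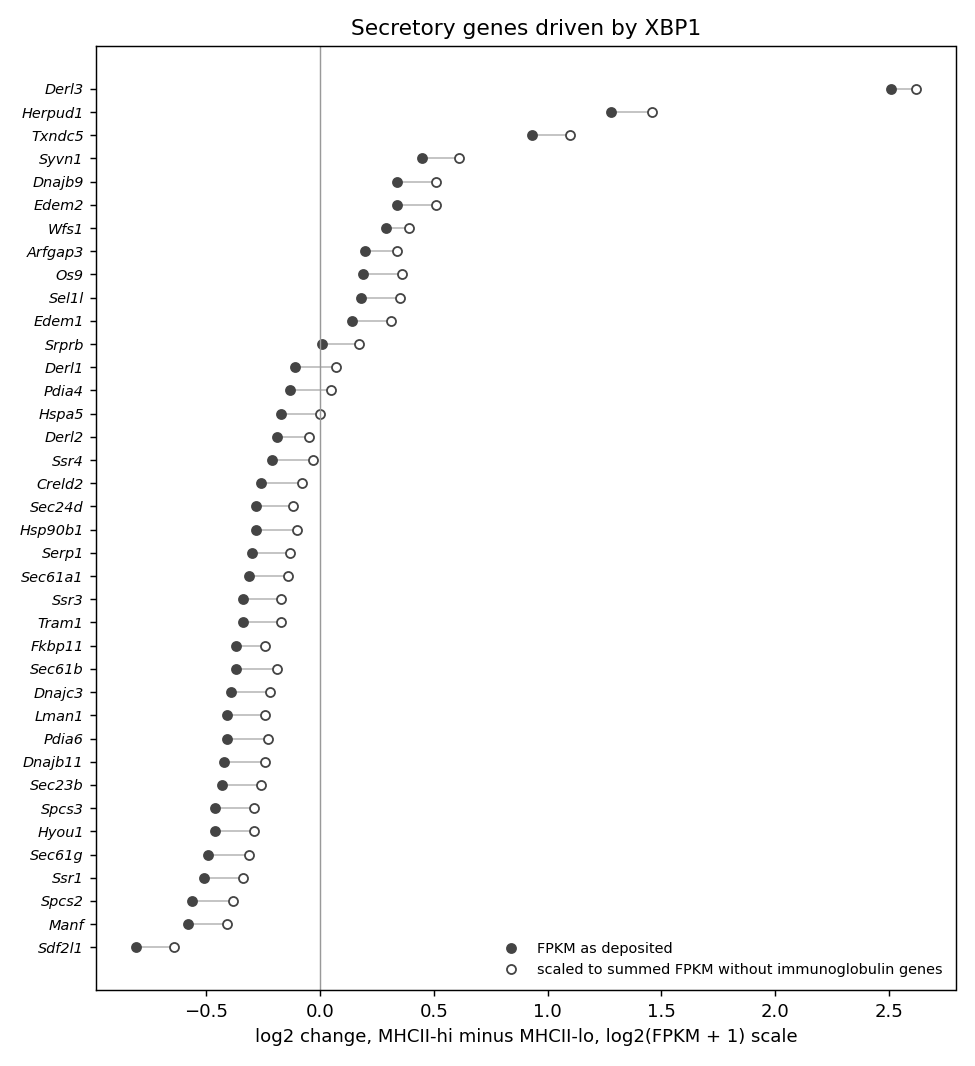
Log2 change, MHCII-hi less MHCII-lo in log2(FPKM + 1), of the 38 secretory genes that XBP1 drives, 1 gene per row; filled points use FPKM as deposited and open points FPKM scaled to the library sum without immunoglobulin genes. Derl3, Herpud1 and Txndc5 lie far to the right, while most rows lie left of 0 on either scale.

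Of B cell genes that plasma cell differentiation is known to switch off, more rose than fell. Of 19 listed genes 9 were tested, 7 rose and 2 fell, where 25.5% of all tested genes rose and 33.1% fell. Their median log2 change was 1.09, against -0.04 for all tested genes. Of the 9, 4 were under 1 FPKM in MHCII-lo, so the minimum favours a rise. With no minimum all 19 were tested, 15 rose and 2 fell, where 14.6% of all genes rose and 28.4% were called in either direction. Pax5, the factor of B cell identity, was under the minimum, at 0.94, 1.57 and 1.11 FPKM in MHCII-hi and 0.02, 0 and 0.03 FPKM in MHCII-lo. Spib stood at 3.80 ± 0.645 FPKM in MHCII-hi and 0.29 ± 0.0520 FPKM in MHCII-lo, and Irf8, which myeloid cells also use, at 28.0 ± 0.537 FPKM in MHCII-hi, against 19.2 ± 0.330 FPKM in MHCII-lo (SD, n = 3). Bcl6, which opposes Prdm1 in germinal centre B cells, fell to 3.45 ± 0.0917 FPKM in MHCII-hi, against 4.49 ± 0.273 FPKM in MHCII-lo (SD, n = 3, limma adjusted p = 0.00300). Spi1, the other listed gene that fell, stood at 53.1 ± 1.86 FPKM in MHCII-hi, against 76.6 ± 1.72 FPKM in MHCII-lo (SD, n = 3, limma adjusted p = 2.14e-05).

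Of 13 survival and homing receptors and factors of plasma cells, 8 rose, 3 fell and 2 did not pass, beside 25.5% of all tested genes that rose and 33.1% that fell. Scaled without immunoglobulin genes, 10 rose and 2 fell, beside 40.6% and 17.5% of all genes. Their median log2 change was 0.34 as deposited, against -0.04 for all tested genes, and 3 of the 13 were under 1 FPKM in MHCII-lo only. Tnfrsf17, which encodes the survival receptor BCMA, stood at 5.22, 4.75 and 5.75 FPKM in MHCII-hi and at 0.35, 0.30 and 0 FPKM in MHCII-lo, so it was listed at 0 in MHCII-lo replicate 3. Tnfrsf13b, for the related receptor TACI, stood at 18.5 ± 0.731 FPKM in MHCII-hi, against 18.9 ± 0.980 FPKM in MHCII-lo, and did not pass (limma adjusted p = 0.659), with a log2 change of -0.03 that became 0.14 and passed when scaled without immunoglobulin genes. Cd28, a costimulatory receptor of T cells and plasma cells, stood at 5.06 ± 0.187 FPKM in MHCII-hi, against 0.677 ± 0.0924 FPKM in MHCII-lo, and the marrow homing integrin gene Itga4 at 31.6 ± 0.203 FPKM in MHCII-hi, against 18.2 ± 0.666 FPKM in MHCII-lo. The ectoenzyme gene Cd38 went the other way, at 0.973 ± 0.0451 FPKM in MHCII-hi and 5.05 ± 0.175 FPKM in MHCII-lo (SD, n = 3; log2 change -1.62, limma adjusted p = 1.17e-06).

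**Figure D3:**
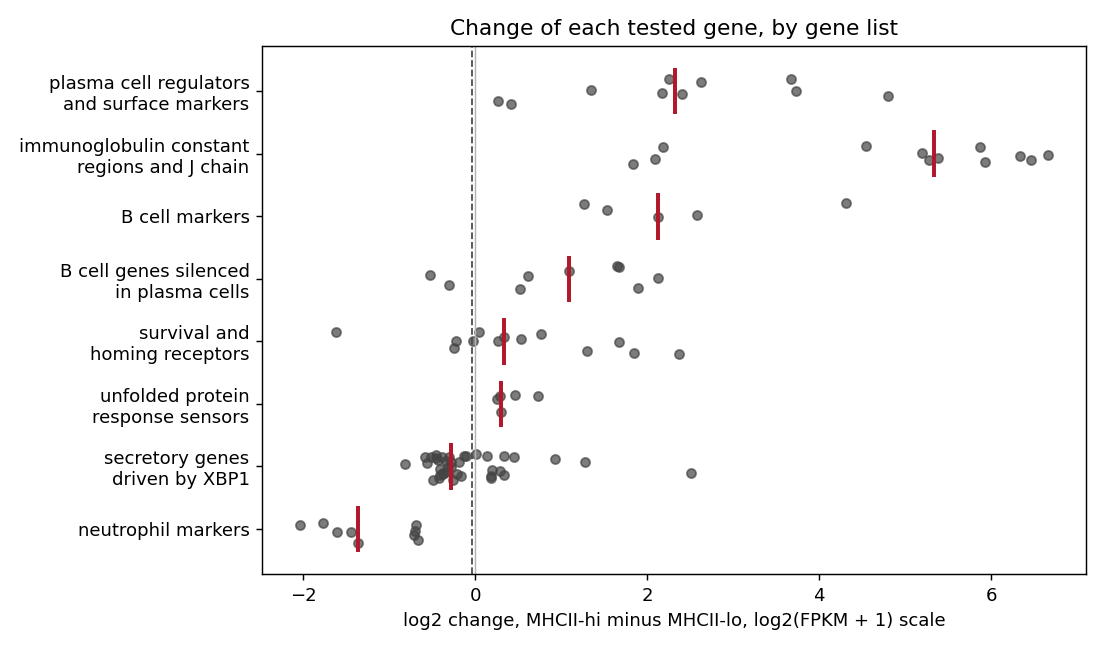
Log2 change, MHCII-hi less MHCII-lo in log2(FPKM + 1), of each tested gene in 8 gene lists; grey points are genes, red bars are list medians and the dashed line is the median of all tested genes, -0.04. The 10 plasma cell genes spread from 0.27 to 4.80, the secretory genes centre on -0.28 and the immunoglobulin constant regions and J chain on 5.33.

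The families of these genes hold relatives that could be set beside them. Ell, the ubiquitous relative of Ell2, stood at 9.04 ± 0.621 FPKM in MHCII-hi and 7.73 ± 0.563 FPKM in MHCII-lo, above Ell2 in both groups (SD, n = 3; limma adjusted p = 0.0352). It did not pass with no expression minimum. Eaf1 stood at 11.2 ± 1.01 FPKM in MHCII-hi, against 12.6 ± 0.784 FPKM in MHCII-lo, and did not pass (limma adjusted p = 0.114), with a log2 change of -0.15 that became 0.01 when scaled without immunoglobulin genes. Eaf2 was thus 0.181 ± 0.0108 times Eaf1 in MHCII-hi and 0.0151 ± 0.00448 times Eaf1 in MHCII-lo (SD, n = 3). Of 9 tested partners of the ELL elongation complex 6 rose and 3 did not pass, beside the 25.5% of all tested genes that rose. With no minimum 5 of 10 rose, beside 14.6% of all genes. Aff4, with the smallest p of them, stood at 11.7 ± 0.227 FPKM in MHCII-hi, against 7.08 ± 0.244 FPKM in MHCII-lo.

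Tent5a, the other TENT5 gene with a level above 0.14 FPKM in any library, stood at 20.6 ± 0.0854 FPKM in MHCII-hi and 14.4 ± 0.916 FPKM in MHCII-lo, so Tent5c was 0.901 ± 0.0318 times Tent5a in MHCII-hi and 0.189 ± 0.0244 times Tent5a in MHCII-lo (SD, n = 3). Of the syndecans, Sdc3 stood at 2.72 ± 0.211 FPKM in MHCII-hi, against 0.617 ± 0.0404 FPKM in MHCII-lo, and rose, and Sdc4 stood at 2.26, 2.24 and 1.83 FPKM in MHCII-hi and 0, 0.17 and 0.02 FPKM in MHCII-lo. Sdc2, under the minimum, stood at 0.583 ± 0.142 FPKM in MHCII-hi, against 0.937 ± 0.107 FPKM in MHCII-lo. Of the SLAM receptors and their adaptors, 6 of 10 were tested, 3 rose and 3 did not pass. Of all tested genes, 25.5% rose and 58.6% were called in either direction. With no minimum 6 of the 10 rose, beside 14.6% of all genes that rose and 28.4% called in either direction. Cd48 was the most abundant, at 86.6 ± 1.68 FPKM in MHCII-hi and 73.6 ± 2.59 FPKM in MHCII-lo, and Slamf7 was 0.0803 ± 0.00194 times Cd48 in MHCII-hi and 0.00404 ± 0.00108 times Cd48 in MHCII-lo (SD, n = 3).

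**Figure D4:**
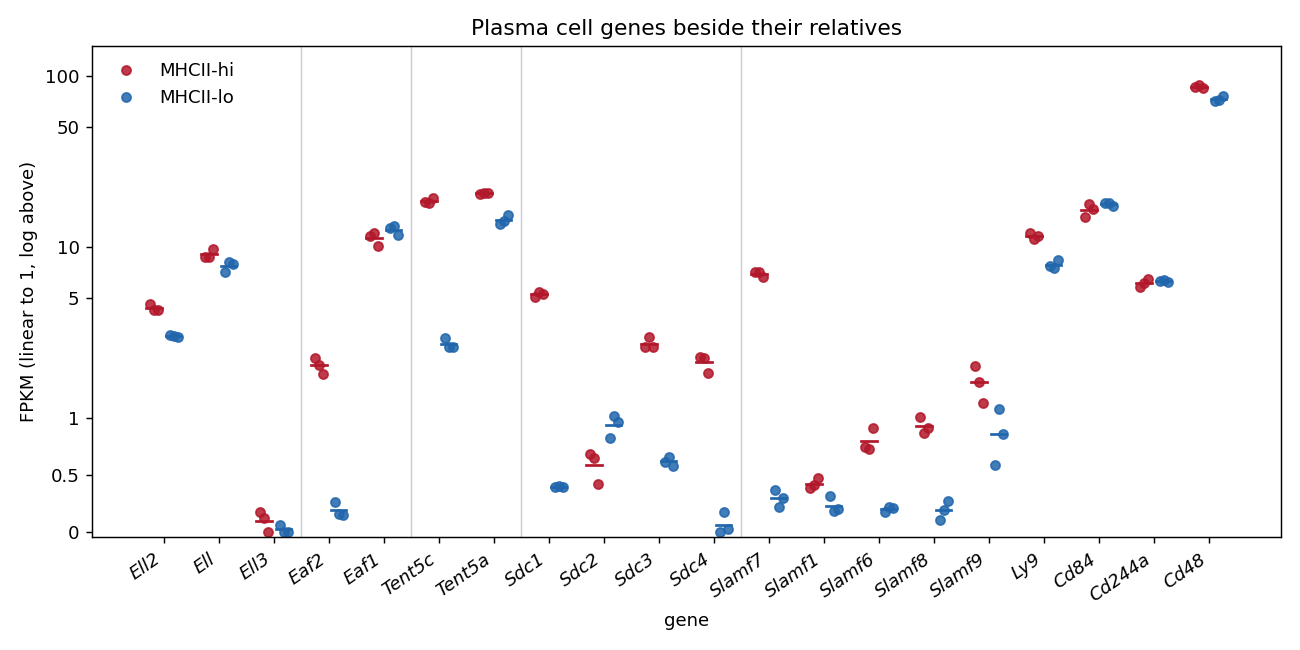
FPKM (linear to 1, log above) of 5 plasma cell genes and relatives of each in each library, MHCII-hi in red and MHCII-lo in blue; points are libraries, short lines are group means and grey lines separate families. Eaf2, Tent5c, Sdc1 and Slamf7 differ by a larger ratio between the groups than Eaf1, Tent5a, Sdc3 and Cd48 do, while Sdc4 also lies far lower in MHCII-lo.

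Markers of antibody-producing and other cell types also differed between the groups, among all tested genes of which 25.5% rose and 33.1% fell. The immunoglobulin constant regions and J chain summed to 28900 to 29600 FPKM in MHCII-hi and 539 to 561 FPKM in MHCII-lo; all 12 of 13 that were tested rose, and Ighe was at 0 in every MHCII-lo library. Jchain, which links IgA and IgM, was 257 ± 24.4 times Prdm1 in MHCII-hi and 46.7 ± 6.83 times Prdm1 in MHCII-lo (SD, n = 3). The 8 B cell markers summed to 58.6 to 61.3 FPKM in MHCII-hi and 7.33 to 8.84 FPKM in MHCII-lo; all 5 tested rose, 4 of which passed the minimum only through MHCII-hi, and Cd79b was the most abundant at 19.4 ± 2.50 FPKM in MHCII-hi, against 7.47 ± 0.556 FPKM in MHCII-lo. Irf4, Prdm1, Slamf7 and Tent5c are not confined to the B lineage, and markers of other users also differed. Conventional dendritic cell markers summed to 47.5 to 49.0 FPKM in MHCII-hi and 10.3 to 10.6 FPKM in MHCII-lo, and 5 of 5 tested rose, 3 of which passed the minimum only through MHCII-hi. Plasmacytoid dendritic cell markers summed to 28.2 to 30.0 FPKM in MHCII-hi, against 2.80 to 3.82 FPKM in MHCII-lo, and 3 of 3 tested rose, 2 of which passed the minimum only through MHCII-hi. The summed level of either kind of dendritic cell marker was thus higher in every MHCII-hi library than in any MHCII-lo library. T and NK cell markers summed to 217 to 227 FPKM in MHCII-hi, against 168 to 177 FPKM in MHCII-lo, and 9 of 10 tested rose, 2 of which passed the minimum only through MHCII-hi. Nkg7, the most abundant of them, did not pass as deposited and was called higher when scaled without immunoglobulin genes. Eosinophil markers summed to 7390 to 7560 FPKM in MHCII-hi, against 2720 to 2780 FPKM in MHCII-lo, and 7 of 7 rose. Of these, Il5ra was also counted among the survival and homing receptors above. Monocyte and macrophage markers summed to 2220 to 2300 FPKM in MHCII-hi, against 3240 to 3270 FPKM in MHCII-lo, and of 8 tested 3 rose, 4 fell and 1 did not pass. Their summed level was thus lower in MHCII-hi, unlike that of the dendritic, T and NK cell and eosinophil lists. Neutrophil markers summed to 15400 to 15800 FPKM in MHCII-hi and 37300 to 38000 FPKM in MHCII-lo, and 9 of 9 fell. None of the markers in these lists other than Ighe was at 0 in every library of a group. The part of these cell types in the values of the 10 genes was not tested.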

How the data were processed

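Per the labels' protocols, a stranded mRNA kit was used on RNA of 6 sorted bone marrow samples. GRCm38 (mm10), fastp, HISAT2 and StringTie are named in the submitters' processing notes. Versions, settings and the annotation used for them are not stated there. Each library has a deposited table of 30803 rows, taken to be FPKM because the values behave so, as the headers state no unit. Since FPKM divides by a library's total, abundant transcripts lower all other values. Where a symbol had several rows, that with the highest mean was kept, and 70 were dropped.

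Groups came from the titles. limma 3.58.1 (R 4.3.3) was fitted on log2(FPKM + 1) with an intensity trend, two-sided, for genes whose mean reached 1 FPKM. The fit was tested on simulated data. Coordinates and exon lengths come from GENCODE M21 (98.1% of tested symbols found) and promoters from RefSeq. Depth was read from the first step of low values in genes with 1 exon and 1 transcript, and fragment numbers per gene follow from it; they cover counting error only. Each replicate was counted as a library. Replicates differed by 2.61 to 2.97 times counting noise (median squared difference), which cannot show whether they are separate mice, since the excess may be technical. The 10 genes and all lists and motifs were chosen with earlier results of these data known. Genes named were the 10, the sorted class II genes, up to 3 genes of smallest p per list, paralogues, the nearest profiles and the most abundant markers, some of which are not reported here; Sdf2l1, Manf, Spcs2, Hspa5, Pax5, Bcl6, Tnfrsf17, Tnfrsf13b and Jchain were chosen after their values were seen. Alternatives covered the pseudocount, the minimum, scaling, variance moderation, summed rows, a replicate block and leaving out each library.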

Additional observations from a re-analysis of the deposited data

How the results depend on the processing

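All 10 plasma cell genes were called higher under each alternative in which they were tested. With a minimum of 5 FPKM, 5 of the 10 were tested and 5 called. Eaf2 fell under the minimum without any one MHCII-hi library, so leaving out each library gave 9 to 10 calls. The log2 change of Xbp1 ranged between 0.13 under quantile normalization and 0.45 when scaled without immunoglobulin genes. A pseudocount of 0.1 in place of 1 raised the log2 change to 3.71 for Prdm1, 3.45 for Sdc1, 4.17 for Slamf7 and 2.89 for Eaf2, the 4 others that an alternative moved by over 1.5 times. Over all genes, 3084 were higher and 4009 lower as deposited. Scaled without immunoglobulin genes, 4934 were higher and 2127 lower. A minimum of 5 FPKM left 1792 higher, and upper-quartile scaling gave 2401 lower. Leaving out each library gave 2716 to 2922 higher and 3583 to 3693 lower. Of the B cell genes that plasma cell differentiation is known to switch off, 15 were higher with no minimum. With a minimum of 5 FPKM, 2 of them were higher and 1 lower, and 4 survival and homing genes were higher. The cause of the scaling differences was not tested, while a changed minimum alters which genes are tested. With the replicate number as a block, 2856 genes were higher and 3782 lower, and all 10 plasma cell genes were called. Same-numbered libraries did not deviate together (correlations of -0.092, -0.004 and -0.035). These correlations cannot show whether the numbers pair the libraries, since deviations within a group may be technical. Low estimated fragment numbers in MHCII-lo limit the folds of Mzb1, Pou2af1 and Eaf2. The same limit holds for Slamf7 (23.6 to 37.0 fragments per MHCII-lo library), Sdc1 (32.5 to 36.3), Prdm1 (31.7 to 51.7) and Irf4 (40.7 to 74.7).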
